A study of Arabidopsis thaliana with 4 samples.

Results

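The GASA genes encode small secreted peptides of plants that share a cysteine-rich end. The 10 members described are GASA1 to GASA7, GASA9, GASA10 and GASA14, listed by locus, and all 10 were found among the 27383 distinct single-locus identifiers of the deposited table. They filled 11 rows, since GASA14 (AT5G14920) has 2, and 0 of them were merged with a neighbouring gene. Their expression was measured by RNA sequencing in whole *Arabidopsis thaliana* seedlings of the Columbia background that carry mutations in *daz3* and *tree1*, genes for zinc-finger proteins. The seedlings were kept dark for 3 days and then received ethylene at 10 ppm in hydrocarbon-free air, or that air alone, for 4 hours. There were 2 libraries in the ethylene group and 2 in the air group. Both groups carry both mutations and the wild type was not analysed here, so the change with ethylene is that of the mutant only.

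Gibberellins are growth hormones that bind GID1 receptors, and the bound receptor leads F-box proteins to the growth-repressing DELLA proteins, which are then degraded. Several GASA genes are known to be induced by gibberellin and repressed through DELLA proteins, and the peptides are known for roles in germination, cell elongation, flowering and redox balance. Ethylene, a gaseous hormone, restrains growth of dark-grown seedlings, and gibberellin and ethylene are known to act together on hypocotyl growth and the apical hook.

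The values were the authors' FPKM, fragments per kilobase of transcript scaled to library size, with 1 value per group. FPKM are per length, so levels can be set side by side between genes. These group values carry no SD, and the depth is unknown. The deposited p-values rest on 2 libraries per group, whose spread may be only technical. How the authors' test estimated that spread for each gene is not stated in the sources used here. TREE1 (AT4G35610) was listed at 0.327 FPKM with ethylene and at 0 in air, and DAZ3 (AT4G35700) at 0 with ethylene and in air. Such zeros may be failed estimates, and there was no wild type to set these values against. Of the marker genes, the root genes PYK10 and CASP1 had 3868 and 176.3 FPKM with ethylene and 4093 and 170.2 FPKM in air. The root hair genes EXPA7 and RHD6 were listed at 0 with ethylene and at 0.383 and 0.346 FPKM in air. The root hair gene COBL9 had 0.154 FPKM with ethylene and 0.086 FPKM in air. Of the 5 root genes only PYK10 and CASP1 were tested, and 0 were called. PORA, abundant in dark-grown cotyledons, had 1147 FPKM with ethylene and 1873 FPKM in air, and was the 1 of 3 shoot genes that was called, as lower. The other shoot genes, RBCS1A and CAB1, had 13205 and 5264 FPKM with ethylene and 12576 and 6014 FPKM in air. Their log2 fold changes were 0.07 and -0.19, without a call.

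GASA14 and GASA1 rose with ethylene, 0 members were called lower, and GASA4, by far the most abundant member, was not called in either direction. In these bulk samples, fewer cells of a type and less RNA per cell cannot be told apart. GASA14 is known for a role in leaf growth and in stress tolerance. GASA1 is among the first described members of the family and is known to be induced by gibberellin. Calls rest on the p-values of the authors' deposited table, adjusted by the Benjamini-Hochberg method over 18696 tested rows at a threshold of 0.05. Of the 9 tested member rows 2 were called higher, against 2.17% of all tested rows, and 0 were called lower, against 4.18% of all tested rows. At an unadjusted deposited p under 0.05 there were 3 member rows, of GASA14, GASA1 and GASA6, and 18.8% of all tested rows. The call rate was higher at high levels: among the 1699 tested rows between 100 and 1000 FPKM in the larger group, 7.06% were called higher and 8.0% lower, and 4 member rows lie in that class, including both that were called. The 9 tested member rows count GASA14 with both rows. Their median log2 fold change was 0.46, against -0.02 for all tested rows. A second, low row of GASA14, at 1.23, lies above that median and raises it. Of the 9 rows 7 had a higher value with ethylene, against 48.0% of all tested rows. Counted once per gene, 6 tested members had a higher value. With every value scaled to 12 housekeeping genes, 5 of the 9 and 28.9% of all tested rows had a higher value.

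The levels of the members fell into clear classes. GASA4 (AT5G15230), known to be expressed in growing tissue and induced by gibberellin, had 9888 FPKM with ethylene and 9203 FPKM in air. It ranked 3 of all tested rows in both groups. It made up 86.9% of the summed FPKM of the family with ethylene and 88.7% in air. Next came GASA1 (AT1G75750), with 532.7 FPKM with ethylene and 387.0 FPKM in air, and GASA7 (AT2G14900), with 407.2 FPKM with ethylene and 364.2 FPKM in air. GASA14 had 374.1 FPKM with ethylene and 206.8 FPKM in air in its main row. GASA6 (AT1G74670), known to promote germination, had 146.6 FPKM with ethylene and 193.7 FPKM in air. All of these lay at percentile 94.2 of the tested rows or above it in both groups, where the median row had 12.5 FPKM with ethylene and 13.0 FPKM in air.

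The other members were low. GASA3 (AT4G09600) had 11.7 FPKM with ethylene and 5.84 FPKM in air, and GASA10 (AT5G59845) had 11.5 FPKM with ethylene and 8.25 FPKM in air. GASA9 (AT1G22690) had 2.00 FPKM with ethylene and 2.30 FPKM in air. GASA2 (AT4G09610) was listed at 0.375 FPKM with ethylene and at 0 in air, and GASA5 (AT3G02885), known to delay flowering, at 0 with ethylene and 0.557 FPKM in air, and neither was tested. No fold is given for these 2 genes. The order of the first 5 members was the same in both groups, and GASA3 and GASA10, which differed 1.01-fold with ethylene, changed places. Without a spread per group, no 2 neighbours in the order can be shown to differ, and the ratio of GASA4 to GASA1, 18.6 with ethylene and 23.8 in air, is by far the widest step among the first 5. The further family genes GASA8 (AT2G39540), GASA11 (AT2G18420), GASA12 (AT2G30810), GASA13 (AT3G10185) and GASA15 (AT1G10588), which the reference annotates as gibberellin-regulated family proteins, were all listed at 0 in both groups.

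**Figure D1:**
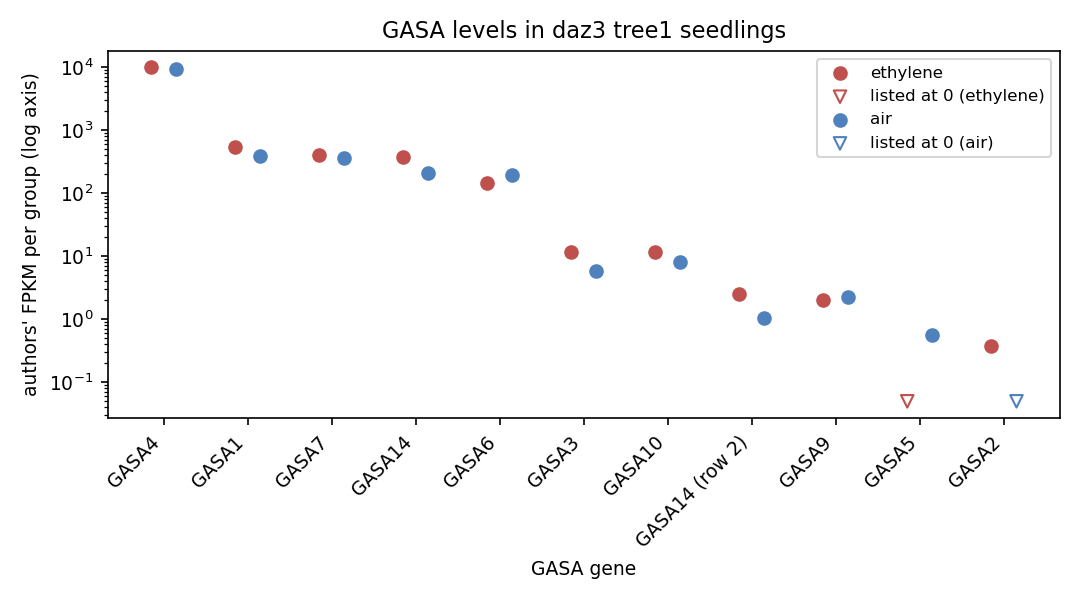
Authors' FPKM of the 11 member rows (log axis), with the ethylene value left and the air value right for each gene, and open triangles for values listed at 0. The values span from 9888 FPKM for GASA4 with ethylene to genes listed at 0 in 1 group, with a gap between GASA6 at 146.6 and GASA3 at 11.7 FPKM with ethylene.

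The rise of GASA14 was the largest called change of the family. Its main row was 1.81-fold higher with ethylene, a log2 fold change of 0.86 (adjusted p = 0.00227, Benjamini-Hochberg over the authors' p-values). In the authors' deposited table its p is 5e-05, the smallest value that occurs there, so the standard error that p implies, 0.21 on the log2 scale, is an upper limit. The second row of GASA14 had 2.50 FPKM with ethylene and 1.07 FPKM in air and was not called. With both rows summed the gene had 376.6 FPKM with ethylene and 207.9 FPKM in air, and the log2 fold change was 0.86 again. By size, the main row ranked 929 of the tested rows above 0 in both groups, counted from the largest increase.

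GASA1 rose 1.38-fold with ethylene, a log2 fold change of 0.46 with a standard error of 0.15 implied by the deposited p (95% interval 0.17 to 0.75, adjusted p = 0.0317 by Benjamini-Hochberg over the authors' p-values). This call depended on the scaling of the libraries. All 12 reference genes, housekeeping genes such as actins and ubiquitins, had higher values with ethylene. Of these 1, EF1A, was called higher, at 0.41 (adjusted p = 0.0417, Benjamini-Hochberg over the authors' p-values), against 2.17% of all tested rows. The median of the 12 was 0.21 on the log2 scale. After subtraction of that median from all log2 fold changes, 0.808% of tested rows were called higher and 11.8% lower, and the median of all tested rows was -0.23. Calls on that scale rest on p recomputed from the shifted log2 fold change and the implied standard error, then adjusted again. On that scale the log2 fold change of GASA1 was 0.25 and it was no longer called. GASA14 kept its call there, with a log2 fold change of 0.64 and an implied standard error that is an upper limit.

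GASA6 stood opposite to these genes. Its log2 fold change was -0.40, with an interval of -0.73 to -0.08 implied by the deposited p, and it was not called (adjusted p = 0.132, Benjamini-Hochberg over the authors' p-values). Scaled to the reference genes its log2 fold change was -0.61, and it was then called lower by the recomputed p. The annotation places the gene AT1G74675 on the other strand across 206 bases of GASA6. No deposited row names AT1G74675. GASA9 overlaps AT1G22700 on the other strand by 11 bases, a gene with 107.7 FPKM with ethylene and 120.9 FPKM in air. The sources used here do not say whether the authors' counting used strand, so reads of such overlapping genes may not be told apart.

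The remaining members did not pass the test. For the abundant ones the interval was narrow. It ran from -0.17 to 0.38 around a log2 fold change of 0.10 for GASA4, and from -0.13 to 0.45 around 0.16 for GASA7. An observed change of 1.33-fold in GASA4 and of 1.35-fold in GASA7 lay at the line of a call, as far as the deposited p measures the error. A true change of that size could still have been missed. Scaled to the reference genes both signs turned, with log2 fold changes of -0.11 for GASA4 and -0.0496 for GASA7, again without a call.

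For the low members the intervals were wide. GASA3, known from siliques and dry seeds as is GASA2, had a log2 fold change of 0.999 with an interval of -0.08 to 2.08, and would have needed a change of 3.10-fold to be called. GASA10 had 0.48 with an interval of -0.50 to 1.46, and GASA9 had -0.20 with an interval of -1.96 to 1.56. A change in these genes was not detectable at this precision unless it was large. Seed reserve genes had higher values beside GASA3: of 11 tested genes of a list of 13, 3 were called higher and 0 lower (2.17% and 4.18% of all tested rows), 10 had a higher value with ethylene (48.0% of all tested rows), and the summed level of the list, untested members included, was 221.2 FPKM with ethylene and 133.0 FPKM in air. None of the 13 was listed at 0 in either group, and their part in the value of GASA3 was not tested.

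**Figure D2:**
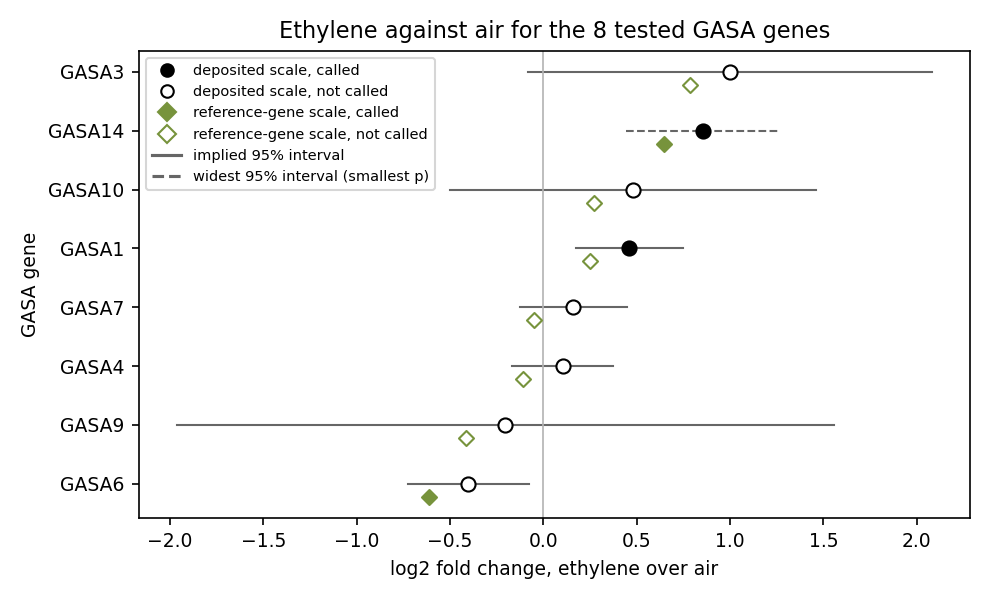
Log2 fold change of ethylene over air for the 8 tested GASA genes (main row of GASA14), as circles with the 95% interval implied by the deposited p, and as diamonds after scaling to the 12 reference genes, where filled symbols were called. GASA14 is filled on both scales at 0.86 and 0.64, GASA1 only on the deposited scale and GASA6 only on the reference-gene scale; the dashed interval of GASA14 is the widest that its deposited p allows.

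The members did not move as a block. Differences of log2 fold changes between 2 members do not depend on a scaling common to all genes, and all 28 pairs of the 8 tested genes were compared with the implied errors taken as independent, although the genes share their libraries. GASA14 lay 1.26 above GASA6 on the log2 scale (95% interval 0.73 to 1.78), and GASA1 lay 0.86 above GASA6 (95% interval 0.43 to 1.30). GASA14 also lay 0.75 above GASA4 (0.26 to 1.25) and 0.69 above GASA7 (0.19 to 1.20). The 95% interval lay above 0 in 7 of the 28 pairs. These 4 pairs passed Benjamini-Hochberg adjustment over the pairs at 0.05, and the pairs with GASA6 alone also passed with intervals widened for 28 comparisons, with lower bounds of 0.42 and 0.17. GASA14 and GASA1 differed by 0.39 with an interval of -0.11 to 0.90. The summed FPKM of all 10 members was 11377 with ethylene and 10373 in air, a ratio of 1.10, and without GASA4 it was 1489 with ethylene and 1170 in air, a ratio of 1.27.

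**Figure D3:**
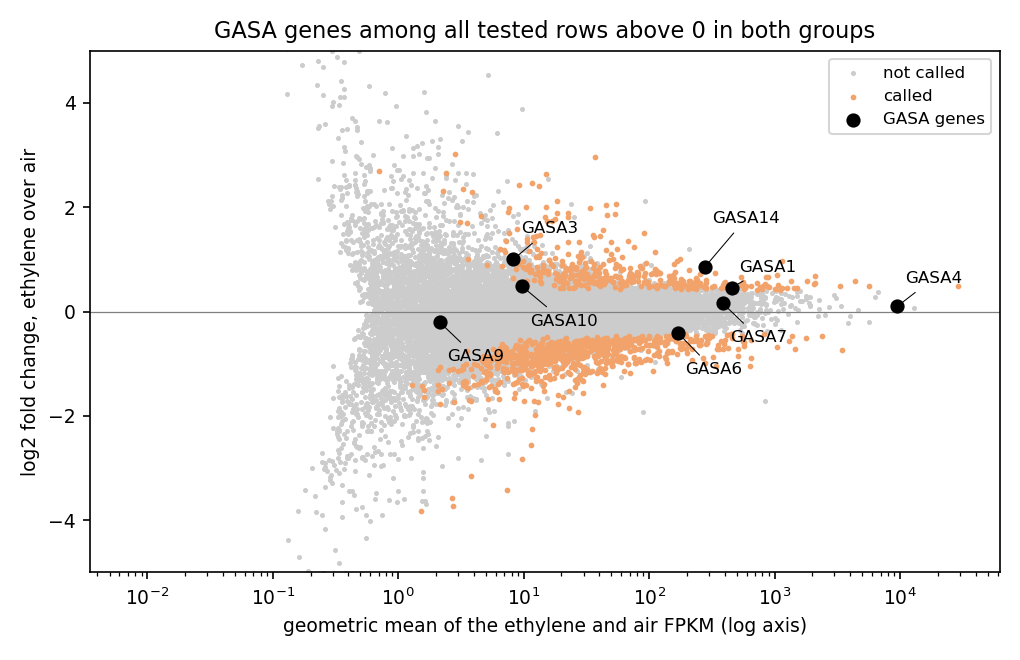
Log2 fold change of ethylene over air against the geometric mean of the ethylene and air FPKM (log axis) for 18500 tested rows above 0 in both groups, with called rows in orange and the GASA genes in black; 22 rows lie beyond the axis limits. The 2 called GASA genes lie between 100 and 1000 FPKM, where the band of uncalled rows is narrow, and GASA3 has a larger value than both but lies within the wide band of low rows.

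The gene models of the RefSeq annotation of TAIR10.1 were compared next, since short and similar genes can share reads. GASA14 (chr5:4826141-4828384, plus strand, 4 exons) encodes 275 codons, of which 29.5% are proline codons, and it is the longest of the family. GASA1 (chr1:28441501-28442435, minus strand, 3 exons) has 98 codons, GASA4 (chr5:4944816-4946299, plus strand, 4 exons) 106 codons and GASA6 (chr1:28053030-28054149, plus strand, 3 exons) 101 codons. In each of the 10 members the last 60 codons hold exactly 12 cysteine codons, the cysteine-rich end that defines the family. In GASA14, 6.7% of these last 60 codons and 35.8% of the codons before them are proline codons. GASA3 and GASA2 are neighbours on chromosome 4, with 1123 bases between them. Their coding sequences were identical at 86.0% of aligned bases, the highest of all pairs, with a longest exact shared run of 35 bases in their transcripts. A read longer than 35 bases cannot match both of these transcripts exactly. Whether reads were shared between these 2 genes in the authors' counting was not tested, and their values are uncertain. The next most similar pair, GASA4 and GASA6, was identical at 69.2% of aligned bases, with a longest shared run of 16 bases.

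The promoters of GASA14 and GASA1, the called members, and of GASA6, which lay opposite to them, are shown to compare what stands before their starts. Each is the 300 bases before the annotated gene start in RefSeq TAIR10.1, written 5′ to 3′ along the gene, from chr5:4825841-4826140 (plus strand) for GASA14, chr1:28442436-28442735 (minus strand) for GASA1 and chr1:28052730-28053029 (plus strand) for GASA6. Capitals mark a match to ATGTA, the core bound by the ethylene factor EIN3, on either strand.
GASA14: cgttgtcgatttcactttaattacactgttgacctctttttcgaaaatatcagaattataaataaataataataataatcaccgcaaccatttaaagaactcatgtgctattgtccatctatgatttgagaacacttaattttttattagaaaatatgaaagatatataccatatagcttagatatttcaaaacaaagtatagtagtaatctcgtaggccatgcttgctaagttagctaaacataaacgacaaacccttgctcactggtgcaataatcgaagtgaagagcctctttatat
GASA1: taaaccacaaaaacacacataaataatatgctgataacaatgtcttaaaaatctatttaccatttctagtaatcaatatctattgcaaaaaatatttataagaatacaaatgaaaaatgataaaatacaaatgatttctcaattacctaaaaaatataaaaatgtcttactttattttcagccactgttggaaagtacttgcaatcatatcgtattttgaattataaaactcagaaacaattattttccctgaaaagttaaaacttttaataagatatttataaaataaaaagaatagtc
GASA6: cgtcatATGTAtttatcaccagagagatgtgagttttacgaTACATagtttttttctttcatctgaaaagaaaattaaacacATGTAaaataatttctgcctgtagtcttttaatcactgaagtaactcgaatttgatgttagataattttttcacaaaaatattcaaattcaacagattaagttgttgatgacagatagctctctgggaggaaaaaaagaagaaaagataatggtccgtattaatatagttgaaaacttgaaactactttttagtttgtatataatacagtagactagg

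Searched on both strands, ATGTA or its reverse complement TACAT occurred 3 times in the GASA6 window and 0 times in those of GASA14 and GASA1. It was present in 7 of the 10 members, against 58.9% of 27443 protein-coding gene windows of the same length, so such matches are common. The gibberellin response core TAACAAA was found in GASA9 and GASA10, 2 of 10 members, against 19.2% of all windows. The auxin response element TGTCTC was found in 1 member, GASA9, against 13.0% of all windows. The GCC box GCCGCC and the G-box CACGTG were found in 0 members, against 2.3% and 7.1% of all windows. None of the 5 motifs was in the windows of GASA14 and GASA1, which says only that these letters are absent there. The windows of GASA1 and GASA14 had 21.3% and 30.3% GC.

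Genes of the gibberellin pathway, chosen by their role, were then counted by the same calls. Of 31 genes, 1 lay in a merged row (KAO2, with AT2G32430, which was not called), and 24 of the other 30 were tested. Of these 1 was called higher and 2 were called lower, against 2.17% and 4.18% of all tested rows, and with so few calls nothing is read from the counts. Their median log2 fold change was 0.14, against -0.02 for all tested rows. The receptor gene GID1B rose to 16.8 FPKM with ethylene, against 9.95 FPKM in air, a log2 fold change of 0.76 (95% interval 0.29 to 1.23, adjusted p = 0.0289 by Benjamini-Hochberg over the authors' p-values). The other receptor genes, GID1A and GID1C, had log2 fold changes of -0.15 and 0.16. After scaling to the reference genes GID1B was not called.

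In synthesis, GA20OX1, whose enzyme makes precursors of active gibberellins, fell to 4.71 FPKM with ethylene, against 11.3 FPKM in air, a log2 fold change of -1.27 (95% interval -2.08 to -0.46). It was the 1 call among 4 tested activating oxidases, and with a trend in GC content subtracted its log2 fold change was -1.22 and the call was lost. The call was also lost with rows at a p of 1 included, and was kept scaled to the reference genes, at -1.48. GA3OX1, which forms active gibberellin, had 44.3 FPKM with ethylene and 63.5 FPKM in air and was not called (adjusted p = 0.0551, Benjamini-Hochberg over the authors' p-values). It was called lower with the GC trend subtracted, at -0.63, and scaled to the reference genes, at -0.73. Of the further tested activating oxidases, GA20OX2 had a log2 fold change of -0.95 and GA3OX4 of 0.96, both without a call. Of 4 tested early synthesis genes and 6 tested inactivating oxidases 0 were called. Their most abundant members were GA3, with a log2 fold change of 0.07, and GA2OX6, with 0.14. The median of the tested inactivating oxidases was 0.51. GA2OX2 had 1.04 (95% interval 0.24 to 1.84), GA2OX8 0.88 (0.03 to 1.72) and GA2OX1 3.25 (-0.95 to 7.45). Opposite to these, GA2OX4 had -0.61 and GA2OX7 -0.81. Of 5 tested DELLA genes GAI fell to 21.3 FPKM with ethylene, against 32.5 FPKM in air. Its log2 fold change was -0.61 (95% interval -0.95 to -0.27, adjusted p = 0.0125 by Benjamini-Hochberg over the authors' p-values). GAI was also called lower scaled to the reference genes, at -0.82, and with the GC trend subtracted, at -0.63. RGA, the most abundant, had -0.10 and RGL1 0.48, both without a call. RGL1 was called higher with the GC trend subtracted, at 0.55, but not scaled to the reference genes, at 0.27. The F-box gene SLY1, whose protein marks DELLA proteins for degradation, had 41.6 FPKM with ethylene and 42.1 FPKM in air.

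**Figure D4:**
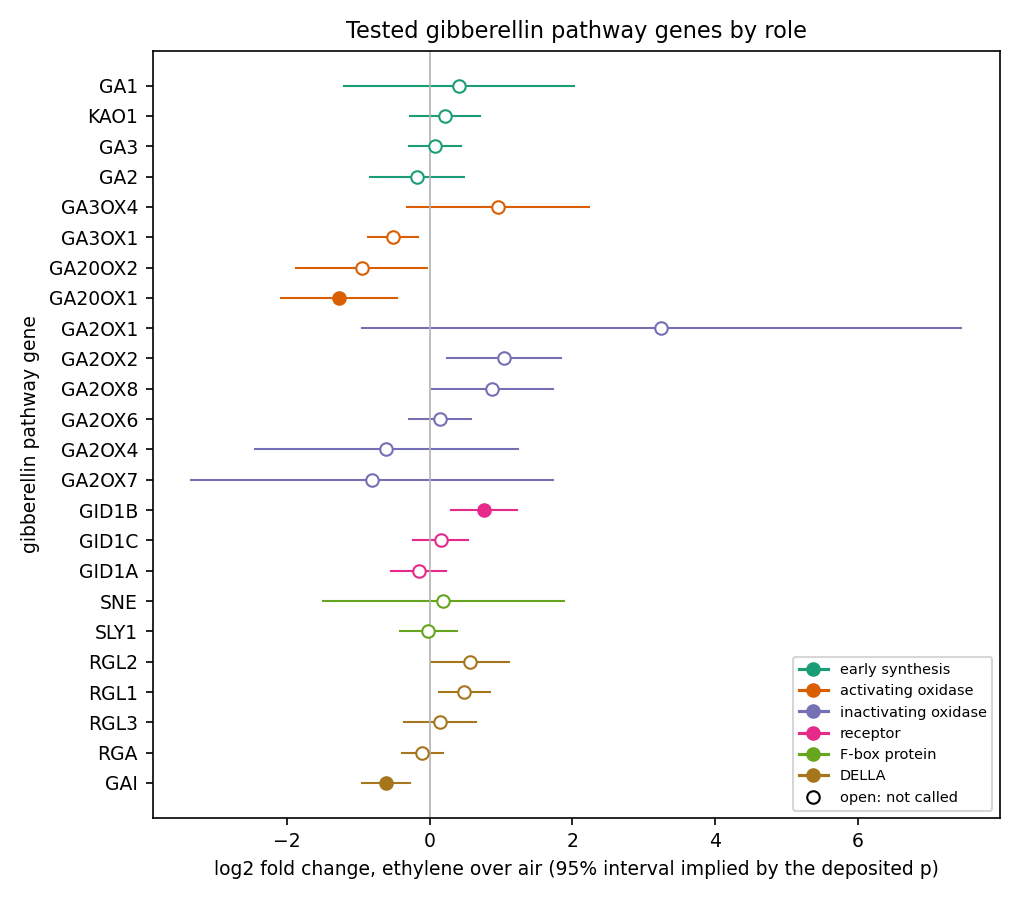
Log2 fold change of ethylene over air with the 95% interval implied by the deposited p for the 24 tested gibberellin pathway genes, grouped by role, with filled circles for called genes. GID1B is filled at 0.76, GAI at -0.61 and GA20OX1 at -1.27, and the interval of GA2OX1 is the widest.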

How the data were processed

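The samples were 4 RNA-seq libraries, 2 with ethylene and 2 with air. TopHat2 2.0.9, Cuffdiff 2.0.1 and the TAIR10 genome were used, per the submitters' processing notes. Their roles, settings and annotation and the scaling of libraries are in none of the sources used here. The deposited values were taken as FPKM, 1 per group, because those notes name Cuffdiff. The deposited p-values come from the authors' test without adjustment, judged by the column name and the values.

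The log2 fold change was computed as ethylene over air without a pseudocount. Of 32635 named rows, 18696 had a p below 1 and were adjusted together (Benjamini-Hochberg, threshold 0.05). The 243 rows without a gene name held 88.9% of the ethylene and 86.0% of the air column and stayed out. Each p was turned into a standard error with the normal distribution, and 95% intervals are printed for rows above the smallest p. For centring, reference-gene scaling and the trends, p was recomputed from the shifted log2 fold change and this standard error, then adjusted again. Rows without a standard error kept their p. The calculation was tested on simulated data.

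Members and lists were chosen with earlier results of these data known. All members are named, and of the gibberellin pathway the called genes or the most abundant gene of a role. GA3OX1, GA3OX4, GA20OX2, GA2OX1, GA2OX2, GA2OX4, GA2OX7, GA2OX8, RGL1, RGA, GID1A and GID1C were named beside them after their values were seen. Genes with a pattern like that of a member are not named, since 2 group values give no measure of likeness. The comparison of pairs and the level class were added after the data were seen.

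Gene models and promoters came from the RefSeq reference of TAIR10.1, in which 25819 of 27383 single-locus identifiers had a transcript; the deposited table gives no coordinates. Trends with GC content and transcript length used lowess with a span of 0.3 over 16629 rows of at least 1 FPKM. Tools were scipy 1.17.1, statsmodels 0.14.6, Biopython 1.88, pandas 2.3.3, matplotlib 3.10.9 and numpy 2.4.6 under Python 3.11.15. Alternatives were other thresholds, a minimum level, inclusion of rows with a p of 1, centring, scaling to reference genes, subtraction of the trends, merged rows and pseudocounts.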

Additional observations from a re-analysis of the deposited data

How the results depend on the processing

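The main counts were 2 members called higher and 0 lower, and 1 gibberellin pathway gene higher and 2 lower. Of all tested rows 2.17% were called higher and 4.18% lower. At a threshold of 0.01, 1 member was higher, and 0 pathway genes were higher and 0 lower (1.02% and 2.19% of all tested rows). At a threshold of 0.1, 2 pathway genes were higher and 3 lower (3.38% and 5.82% of all tested rows). With rows at a p of 1 included in the adjustment, 1 member was higher, and 0 pathway genes were higher and 1 lower. Of all rows then adjusted, 0.953% were called higher and 1.90% lower. GASA1 was the member lost at 0.01 and with these rows included. Scaled to the reference genes, 1 member was higher and 1 lower, and 0 pathway genes were higher and 3 lower. On that scale 0.808% of all tested rows were called higher and 11.8% lower, so nothing is read from these counts. With the GC trend subtracted, 2 pathway genes were higher and 2 lower, with RGL1 called higher, GA3OX1 called lower and GA20OX1 not called. The shares of all tested rows were then 2.17% higher and 3.29% lower. Scaling to the reference genes turned the log2 fold changes of GASA7 to -0.0496 and of GASA4 to -0.11, neither called on either scale, since the subtracted median exceeds their values. The log2 fold change of GASA14 ranged from 0.64 to 0.94, that of GASA1 from 0.25 to 0.55 and that of GASA6 from -0.61 to -0.37 over the alternatives run. The other 25 counts, which include both counts of 3, stayed within 1.5 times the main count. The other 51 values of members kept their direction and their side of the threshold, or moved by less than the implied standard error where a pseudocount or a sum of rows was tried. No paired analysis was possible because the deposited columns hold 1 value per group, and for the same reason no library could be left out. The implied standard error was 0.14 for GASA4 and 0.90 for GASA9.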
